A study of Mus musculus with 16 samples.

Results

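The histone genes of the mouse were followed through myogenic differentiation as the set of 83 genes whose symbol begins with Hist1h to Hist4h, H2af, H3f3 or H1f, out of 31053 genes in the deposited table. The set was fixed by the gene symbols alone. It held 67 clustered, replication-dependent genes (6 of H1, 18 of H2A, 18 of H2B, 12 of H3 and 13 of H4) and 15 genes of variant or replacement histones. The last symbol, H3f3aos, belongs to an antisense RNA opposite H3f3a and is no histone gene. Of the clustered genes, 54 lie in cluster Hist1 on chromosome 13, 10 in Hist2 on chromosome 3, 2 in Hist3 on chromosome 11 and 1 in Hist4 on chromosome 6.

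Messenger RNA was sequenced from C2C12, an immortal line of mouse myoblasts that fuses into myotubes when it grows dense. There were 4 samples each of wild-type (WT) myoblasts, WT myotubes, Fam134bKO myoblasts and Fam134bKO myotubes, all kept in the same serum-rich growth medium, with differentiation left to follow confluence. Fam134b codes for a receptor that directs endoplasmic reticulum to autophagy, and the Fam134bKO cells were made from C2C12 with CRISPR-Cas9 against both of its isoforms. Whether the knockout cells were 1 clone, several or a pool is not given in the sources used here, so the loss of Fam134b and any other difference that arose between the lines cannot be told apart. The genotype field of the labels reads unknown, and genotype and stage were taken from the sample titles. Samples are described as biological replicates.

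Replication-dependent histone genes supply the core histones and linker histones that package newly made DNA, and their transcription and mRNA stability rise in S phase and drop when cells leave the cycle. Their mRNAs have no introns and normally end just past a conserved stem-loop instead of in a poly(A) tail. The stem-loop is bound by Slbp and the end is cut by a U7 snRNP complex. Variant histones are coded outside these clusters by ordinary polyadenylated mRNAs, are made throughout the cycle and replace the canonical proteins at particular sites. The libraries were made with a commercial digital mRNA sequencing service, and whether reads were primed on poly(A) tails is not given in the sources used here. Libraries primed on poly(A) tails under-count mRNAs that end at the stem-loop, and the extent of this here was not tested.

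The shared 3' sequence of the clustered genes was searched for in the GENCODE M21 transcript models on GRCm38, the build named mm10 in the labels. A stem-loop of 16 bases within the stretch after the stop codon was found in 44 of the 67 clustered genes and in 1 of the 15 variants, H2afx. It began 21 to 58 bases after the stop codon in the clustered genes, with a median of 31. The clustered genes held 6 forms, and the commonest was in 26 genes of the H1, H2A, H2B and H3 classes. The examples below are shown because their genes carry the results that follow. Each is written 5′ to 3′ on the gene's own strand, with the stem-loop in capitals and 5 flanking bases on each side in lower case. They were read from the GENCODE M21 transcripts.
Hist1h1c, chr13:23739507-23739532, plus strand: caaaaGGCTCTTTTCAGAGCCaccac
Hist1h1e, chr13:23621777-23621802, minus strand: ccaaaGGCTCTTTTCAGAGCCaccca
Hist3h2a, chr11:58955167-58955192, plus strand: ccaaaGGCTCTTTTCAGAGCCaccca
Hist2h2ac, chr3:96220413-96220438, minus strand: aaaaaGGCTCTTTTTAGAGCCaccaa
Hist1h3c, chr13:23745042-23745067, minus strand: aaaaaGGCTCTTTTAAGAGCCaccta
Hist2h3c1, chr3:96247322-96247347, plus strand: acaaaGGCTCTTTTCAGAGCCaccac
Hist1h4d, chr13:23581945-23581970, plus strand: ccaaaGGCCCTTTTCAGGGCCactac
Hist1h4i, chr13:22040961-22040986, minus strand: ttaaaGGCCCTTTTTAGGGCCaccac
H2afx, chr9:44335235-44335260, plus strand: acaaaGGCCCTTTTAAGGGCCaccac
Hist1h1c, Hist1h1e, Hist3h2a, Hist2h3c1 and Hist1h2be hold the same 16 bases. Their levels went different ways, as the values that follow show.

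The models differed in what follows the stem-loop. In 22 clustered genes the model ended within 100 bases of it, in another 22 it ran on for 100 bases or more, and in 23 no stem-loop lay in the model. A polyadenylation signal (AATAAA or ATTAAA) within the last 50 bases was annotated in 2 of the 22 short-ended models, in 11 of the 22 long ones and in 4 of the 23 without a stem-loop. H2afx held both kinds of end, with the stem-loop 46 bases after its stop codon and a further 822 bases that close with a polyadenylation signal. Near-identical sequence is a further limit: 47 of the 67 clustered genes share 50% or more of the last 500 bases of their transcript with another gene, against 2 of 15 variants. How reads matching several genes were counted is not given in the sources used here, so values of single clustered genes with shared ends are uncertain.

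Reads counted on genes ranged from 1484750 to 3287461 a sample, and the 2 shallowest libraries were Fam134bKO myotubes 2 and 4. Fam134b itself had a normalized count of 207 ± 42.0 in WT and 27.5 ± 5.49 in Fam134bKO myoblasts (SD, n = 4), and of 232 ± 61.6 and 41.8 ± 14.02 in the myotubes. Both differences were without overlap between the groups (exact two-sided permutation test p = 0.0286, the smallest that 4 against 4 samples allow). Among myoblasts, 8 skeletal muscle markers summed to 3605 to 4336 in WT and to 388 to 524 in Fam134bKO samples, with Myog at 0 in all 4 of the latter. Among myotubes their sum was 14380 to 18190 in WT and 7088 to 8415 in Fam134bKO samples. Of the 8, Myf5 alone was higher in Fam134bKO than in WT myoblasts, at 107 to 118 against 59.8 to 82.0. Tnnt2 was the largest part of the myoblast sums, with means of 2755 in WT and 224 in Fam134bKO samples. Of the defining markers of other cell types, Adipoq, Plin1, Ibsp, Alpl, Ptprc, Adgre1 and Cdh5 were at 0 in all 16 samples. Of the same 4 lists, Cebpa was at 33.97 to 78.4, Cd68 at 0 to 11.2 and Csf1r at 0 to 9.18 in myoblasts, and no other marker reached 3 reads in a sample. Among myotubes, Csf1r spanned 2.79 to 6.30 for WT and 4.00 to 21.9 for Fam134bKO samples. The part of such cells in the results was not tested.

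Few reads lay behind the clustered genes. Together they took 0.0406% to 0.0775% of the reads of a sample, and the variants 0.176% to 0.256%. A level here is a normalized count, the reads of a gene divided by a factor of the sample, and 3 reads correspond to 2.49 to 5.99. In all, 35 clustered and 9 variant genes reached a normalized count of 10 in 4 or more samples and were tested with limma among 10767 genes, and a gene was called where its adjusted p (Benjamini-Hochberg) was under 0.05. The tested genes hold 94.3% of all reads on clustered genes. Of the other 32 clustered genes 5 had no read in any sample, and the 6 untested variants included 4 without a read. The limit on level weighs on the direction of the test for the clustered genes: 19 of the 35 reached the limit through the myoblasts alone, 1 through the myotubes alone and 15 in both stages. For the 19 this limit favoured a lower level in myotubes, so their number is not evidence of a direction. In Fam134bKO differentiation 1 of them, Hist1h2ac, had a positive log2 fold change (0.36, not called).

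Summed over all 67 genes with no limit on level, the clustered histones stood at 1786, 2059, 2074 and 1924 in WT myoblasts and at 1363, 1292, 1274 and 1081 in WT myotubes. Every WT myotube sample lay below every WT myoblast sample. In the Fam134bKO cells the sum was 1735, 1534, 1784 and 1726 in myoblasts and 1412, 1349.7, 1539 and 1780.4 in myotubes, and these ranges overlapped. The ratio of the means, myotubes over myoblasts, was 0.639 in WT and 0.897 in Fam134bKO cells. Over the 20 genes that share under 50% of their ends it was 0.942 in WT cells, with overlapping ranges, and 1.52 in Fam134bKO cells, the other direction. Hist1h1c, Hist1h2bc and Hist3h2a are among these 20 and weigh on both ratios. In Fam134bKO cells the mean sum of the 20 went from 865 to 1312, and Hist1h1c alone went from 289 to 674. Without Hist1h1c, Hist1h2bc and Hist3h2a, the other 64 clustered genes had ratios of 0.321 and 0.334. The genes left out here were not called lower in either genotype, while Hist1h1e, which fell, was kept. This choice favours lower ratios, so these ratios are not evidence of a direction. In bulk RNA a lower level in each cell and a smaller share of cycling cells cannot be told apart. For the 15 variants, WT sums were 6035 to 7053 before and 4961 to 5983 after differentiation, and Fam134bKO sums 6288 to 6812 and 4730 to 5227, without overlap in either genotype.

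**Figure D1:**
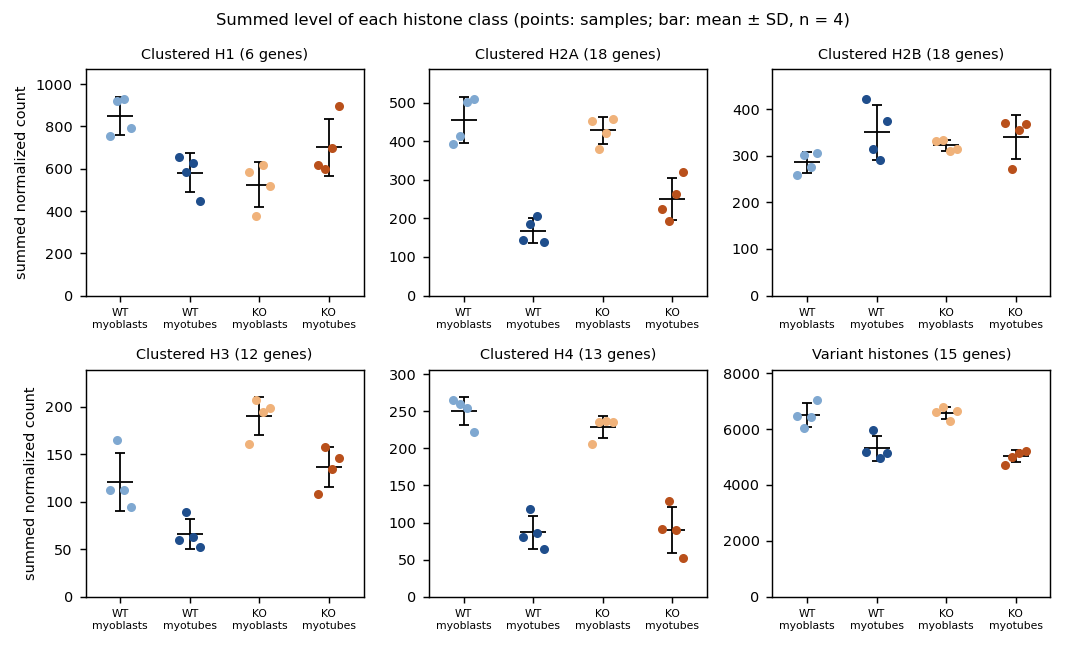
Summed normalized count (linear axis from 0) of all clustered genes of each class and of all variants in the 4 groups; points are samples, bars the mean ± SD of 4. The H2A, H3 and H4 sums of the myotubes lie below those of the myoblasts in both genotypes, the H2B sums overlap between stages, and the H1 sums are separate in WT and overlap in Fam134bKO cells.

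For H4, the histone with a single canonical protein shared by all its genes, the sum was 266, 260.4, 254 and 223 in WT myoblasts and 80.3, 118, 85.5 and 64.4 in WT myotubes. Knockout cells had an H4 sum of 206, 236, 237 and 236 as myoblasts and 91.01, 128, 89.97 and 51.95 as myotubes, again without overlap. The H2A sum was 455 ± 59.6 in WT myoblasts and 168 ± 32.2 in WT myotubes (SD, n = 4), and 428 ± 35.8 and 250.5 ± 54.2 in the Fam134bKO stages, without overlap in either. The H2B sum was 286 ± 22.4 in WT myoblasts and 351 ± 59.3 in WT myotubes, and its ranges overlapped in both genotypes. The linker histones went 848 ± 89.3 to 580.4 ± 92.1 in WT cells and 524 ± 107 to 702 ± 136 in Fam134bKO cells, without overlap in WT and with overlap in the knockout. H3 sums were 121 ± 30.5 and 66.1 ± 15.9 in the WT stages, and 191 ± 20.45 and 137 ± 20.997 in the Fam134bKO stages, without overlap in either genotype. These sums rest on a few genes: Hist1h1c, Hist1h2bc, Hist1h1e and Hist3h2a held 52.7% of the clustered counts in WT myoblasts, 74.4% in WT myotubes, 47.1% in Fam134bKO myoblasts and 76.8% in Fam134bKO myotubes.

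On differentiation of WT cells 17 of the 35 tested clustered genes fell and 1 rose, while over all 10767 genes 9.16% were called lower and 13.8% higher. The median log2 fold change was -1.11 over the 35, and -0.01 over all genes. In Fam134bKO cells 25 clustered genes were lower and 4 higher, with background shares of 16.1% and 17.3%, and the median was -2.21 against -0.02. All 17 genes called lower in WT cells were also called lower in Fam134bKO cells, which makes up 17 of the 25 there. Of the 17, 12 reached the limit on level through the myoblasts alone, as did 18 of the 25. That limit therefore weighs on the agreement between the genotypes. Among the 15 genes with counts in both stages, 5 were called lower and 1 higher in WT, and 7 lower and 4 higher in Fam134bKO cells, with medians of -0.41 and -0.67. Leaving out the genes that share their ends left 13 tested genes. The 18 calls in WT became 6 (5 lower, 1 higher) and the 29 in Fam134bKO cells 7 (5 lower, 2 higher). The share called lower was then 38.5% in each genotype, where it was 48.6% in WT and 71.4% in Fam134bKO cells over the 35.

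**Figure D2:**
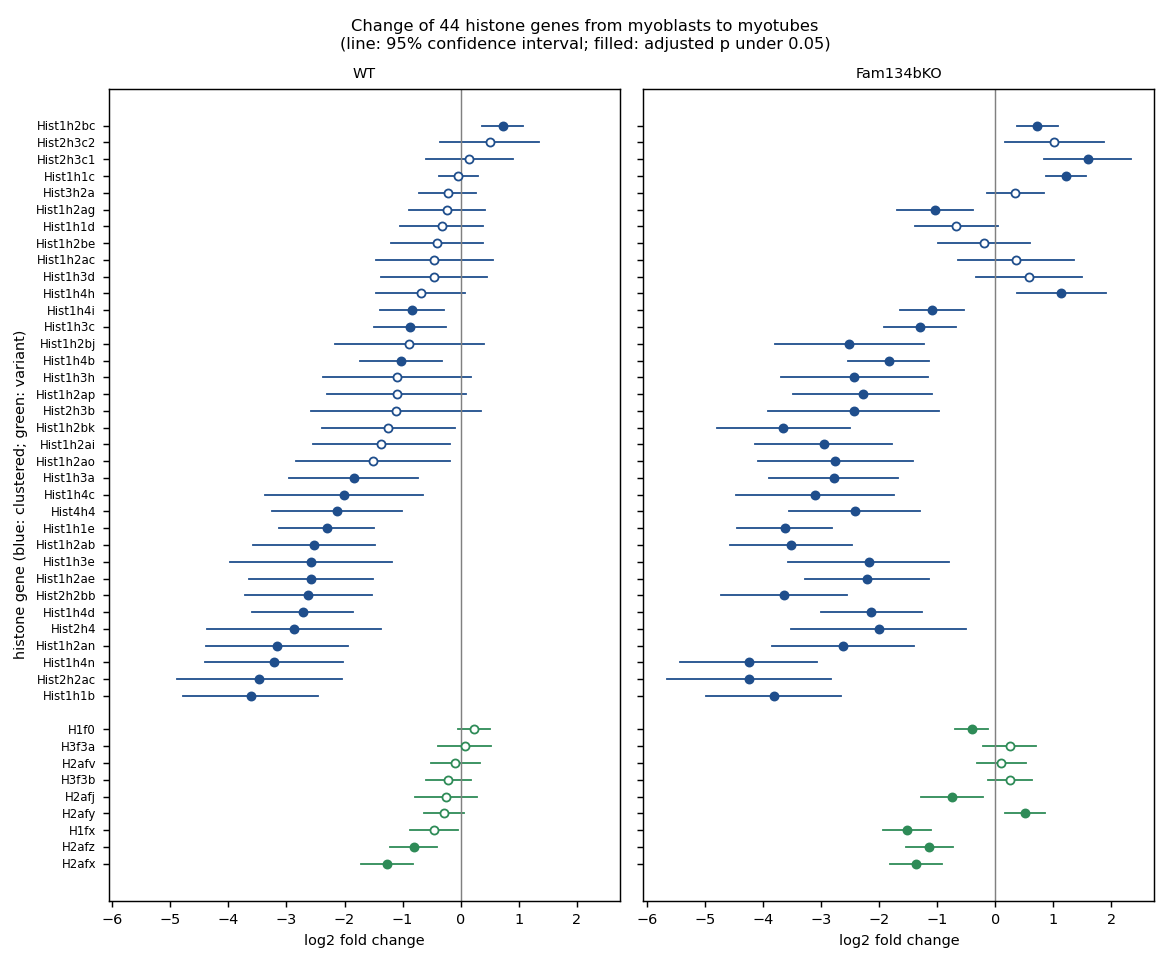
Log2 fold change of myotubes against myoblasts in WT (left) and Fam134bKO cells (right) for the 44 tested genes, blue for clustered and green for variant; lines are 95% confidence intervals from limma and filled points have an adjusted p under 0.05. Clustered genes reach from -3.62 to 0.73 in WT, a wider span than the variants, which reach from -1.27 to 0.23.

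Proliferation markers moved with these genes. The summed count of Mki67, Top2a, Pcna, Mcm2, Ccna2 and Ccnb1 went from 3660 to 4350 before to 2095 to 3274 after differentiation in WT cells. Its ranges in Fam134bKO cells were 2999 to 4194 before and 896 to 1417 after. Of 46 genes of S phase and DNA replication, 29 (63.0%, against 9.16% of all genes) were called lower and 0 higher in WT myotubes against myoblasts (0 higher also at an unadjusted p under 0.05 and with voom), and 43 (93.5%, against 16.1%) lower and 1 higher in Fam134bKO cells. The part of cell cycle exit in the histone result was not tested.

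Linker histones bind the DNA that enters and leaves the nucleosome. Hist1h1e stood at 197, 275, 344 and 244 in WT myoblasts and at 38.9, 69.3, 113 and 22.8 in WT myotubes. In knockout cells Hist1h1e went from 256, 84.7, 199.5 and 196 to 8.71, 20.4, 15.3 and 9.99. All myotube samples were below all myoblast samples of their genotype, with log2 fold changes of -2.31 (standard error 0.39, adjusted p = 0.000247) in WT and -3.63 (standard error 0.39, adjusted p = 4.41e-07) in Fam134bKO cells by limma. The second Fam134bKO myoblast sample was the lowest of its group. Of the last 500 bases of the Hist1h1e model 99.2% are shared with Hist1h2be and Gm11398, which overlap it on the same strand, so its count is uncertain. Hist1h1b, in the same class, had 28.6, 71.4, 47.03 and 40.99 in WT myoblasts and 0.863, 3.598, 10.2 and 0.991 in WT myotubes. Its counts in Fam134bKO cells were 33.2, 15.8, 27.8 and 25.03 and then 2.905, 0, 1.799 and 0. Both stages were again separate, and the log2 fold changes were -3.62 and -3.82.

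Hist1h1c, the clustered linker histone gene with the highest count, was called in Fam134bKO cells and not in WT cells. Its count was 500.1, 529, 500.4 and 481 in WT myoblasts and 600.0, 488, 477 and 410.2 in WT myotubes, with overlapping ranges. Fam134bKO myoblasts had 269, 256, 363 and 269 and Fam134bKO myotubes 587, 569, 664 and 877 of Hist1h1c, so that every myotube sample was higher. Log2 fold changes were -0.04 (standard error 0.17, adjusted p = 0.9) in WT and 1.21 (standard error 0.17, adjusted p = 9e-06) in Fam134bKO cells from limma. Between the genotypes its log2 fold change was -0.81 (adjusted p = 0.00129) in myoblasts and 0.44 (adjusted p = 0.0583) in myotubes. The latter passed without WT myotubes 1, Fam134bKO myotubes 1 or Fam134bKO myotubes 2 (0.50 to 0.54, adjusted p = 0.0273 to 0.0493). Hist1h1d, with a model of 7425 bases, was called in no comparison, at 14.3 to 31.8 in WT myoblasts and 7.99 to 17.4 in Fam134bKO myotubes.

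Histone H2A pairs with H2B in the outer part of the nucleosome. Hist2h2ac was 74.7, 71.4, 129 and 73.97 in WT myoblasts and 2.59, 11.7, 18.6 and 2.97 in WT myotubes. Its knockout values were 61.2, 8.301, 35.6 and 48.4 in myoblasts and 0, 0, 7.197 and 0 in myotubes, where 3 of the 4 libraries had no read. The stages were separate, with -3.47 (adjusted p = 0.000954) in WT and -4.24 (adjusted p = 6.53e-05) in Fam134bKO cells, and the second Fam134bKO myoblast sample was again the lowest of its group. Hist1h2ae went from 44.3, 62.7, 96.1 and 77.5 to 5.18, 18.9, 26.95 and 3.96 in WT cells. In Fam134bKO cells the Hist1h2ae count went from 66.5, 54.8, 45.1 and 60.1 to 15.5, 2.92, 17.99 and 17.98. The stages were separate in both genotypes, and limma gave log2 fold changes of -2.58 (standard error 0.51, adjusted p = 0.00102) and -2.21 (standard error 0.51, adjusted p = 0.00231). At 60.8% and 70.6%, large parts of the ends of Hist1h2ae and Hist2h2ac are shared with other H2A genes.

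Hist3h2a, of the small cluster on chromosome 11, was not called on differentiation in either genotype. It was at 64.6, 106, 73.1 and 85.6 in WT myoblasts and at 70.8, 66.6, 68.8 and 70.3 in WT myotubes. Fam134bKO myoblasts had 96.2, 193, 136 and 138 and Fam134bKO myotubes 165, 114, 192 and 252 of it. The ranges of the stages overlapped in both genotypes, with log2 fold changes of -0.22 (95% confidence interval -0.71 to 0.26, adjusted p = 0.529) and 0.34 (95% confidence interval -0.15 to 0.83, adjusted p = 0.275). None of its last 500 bases is shared with another gene, and its model runs 1643 bases past the stem-loop. On the genome Hist3h2a overlaps the annotated genes Trim17 on the same strand and Gm44313 on the other. How reads in such overlaps were counted is not given in the sources used here. A pair of nearly identical H2A genes, Hist1h2ao and Hist1h2ap, was low in the second myoblast sample of both genotypes. Hist1h2ap stood at 72.9, 16.4, 51.04 and 106 in WT myoblasts and at 42.9, 7.47, 47.7 and 38.4 in Fam134bKO myoblasts. It was not called in WT differentiation (log2 fold change -1.10, adjusted p = 0.174). By limma Hist1h2ap was called lower in Fam134bKO differentiation (log2 fold change -2.28, adjusted p = 0.00417). It was also lower in Fam134bKO than in WT myotubes (log2 fold change -2.01, adjusted p = 0.0145).

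For H2B the best-measured gene rose. Hist1h2bc was 157, 203, 167 and 211 in WT myoblasts and 378, 255, 259 and 339 in WT myotubes. Its levels in Fam134bKO cells were 187, 198, 155 and 196 and 335, 249.5, 313 and 322. No myotube sample overlapped the myoblasts of its genotype, and limma gave 0.73 (standard error 0.17, adjusted p = 0.00402) in WT and 0.72 (standard error 0.17, adjusted p = 0.00252) in Fam134bKO cells, 1.65-fold in each. Its representative model is spliced over 2 exons (chr13:23684199-23692908, plus strand) and holds no stem-loop. Hist1h2be, with a model that runs 1861 bases past the stem-loop, was low and did not pass in any comparison. It had 11.99, 13.5, 12.01 and 11.6 in WT myoblasts and 12.1, 10.8, 8.36 and 5.94 in WT myotubes. In the Fam134bKO stages its counts were 12.2, 8.301, 13.01 and 9.18 and 8.71, 14.6, 12.6 and 3.996, all overlapping. Of the other 3 tested H2B genes, with 76.9% to 82.3% of their ends shared, 1 was called lower in WT and 3 in Fam134bKO cells.

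Histone H3 and H4 form the core tetramer. Hist1h3c stood at 25.8, 21.2, 24.02 and 23.2 in WT myoblasts and at 10.4, 18.9, 11.2 and 10.9 in WT myotubes. In Fam134bKO cells it was 42.9, 87.99, 45.1 and 50.1 and then 21.3, 14.6, 22.5 and 29.97. The drop was without overlap in both genotypes, -0.87 (standard error 0.30, adjusted p = 0.0402) in WT and -1.30 (standard error 0.30, adjusted p = 0.00213) in Fam134bKO cells by limma, and the WT call was lost in 13 of the alternative settings. Among these were the replicate block, voom, and the omission of any 1 of the 4 WT myoblast samples, of WT myotubes 1, 3 or 4, or of Fam134bKO myoblasts 4 (-0.91 to -0.79, adjusted p = 0.053 to 0.11). Hist2h3c1, of cluster Hist2, had 7.38, 11.6, 8.01 and 7.13 in WT myoblasts and 12.1, 10.8, 8.36 and 6.94 in WT myotubes. It reached 37.8, 65.7, 50.4 and 31.97 in Fam134bKO myotubes from 6.999, 20.8, 13.01 and 20.9 in the myoblasts. The 4 knockout myotube samples lay above all 12 others, and the log2 fold change on differentiation was 1.59 (standard error 0.36, adjusted p = 0.00187) in Fam134bKO and 0.14 (adjusted p = 0.82) in WT cells. This gene overlaps the annotated gene Gm20634 on the same strand, which holds 100% of its end, so reads of the 2 cannot be told apart.

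Among H4 genes Hist1h4d was 40.6, 44.4, 57.04 and 37.4 in WT myoblasts and 8.63, 10.8, 5.58 and 1.98 in WT myotubes. Its Fam134bKO counts were 28.9, 22.4, 39.9 and 43.4 and 5.81, 14.6, 5.398 and 3.996. The stages were separate, with -2.72 (standard error 0.42, adjusted p = 7.88e-05) and -2.14 (standard error 0.42, adjusted p = 0.000493) from limma, and none of the end of this gene is shared. Hist1h4i went from 87.7, 76.2, 77.1 and 86.4 to 48.3, 60.3, 40.9 and 35.7 in WT cells. In Fam134bKO cells Hist1h4i moved from 57.7, 88.8, 59.9 and 68.4 to 34.9, 51.1, 29.7 and 17.98. Its log2 fold changes were -0.83 (adjusted p = 0.0278) and -1.09 (adjusted p = 0.00325), again without overlap. The WT call was lost without WT myoblasts 1, 3 or 4 or WT myotubes 1, 3 or 4 (-0.86 to -0.72, adjusted p = 0.0518 to 0.0919). Hist1h4n was 34.1, 30.9, 34.02 and 15.2 in WT myoblasts, 0, 3.598, 8.36 and 0.991 in WT myotubes and 20.1, 13.3, 32.97 and 11.7 in Fam134bKO myoblasts. It had no read in any Fam134bKO myotube library, which makes it at least 4.89-fold lower there than in Fam134bKO myoblasts, against a floor of 3 reads a library. Hist1h4h, chosen after its values were seen, was the H4 gene called higher in Fam134bKO myotubes than in the myoblasts (log2 fold change 1.13, adjusted p = 0.0223).

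**Figure D3:**
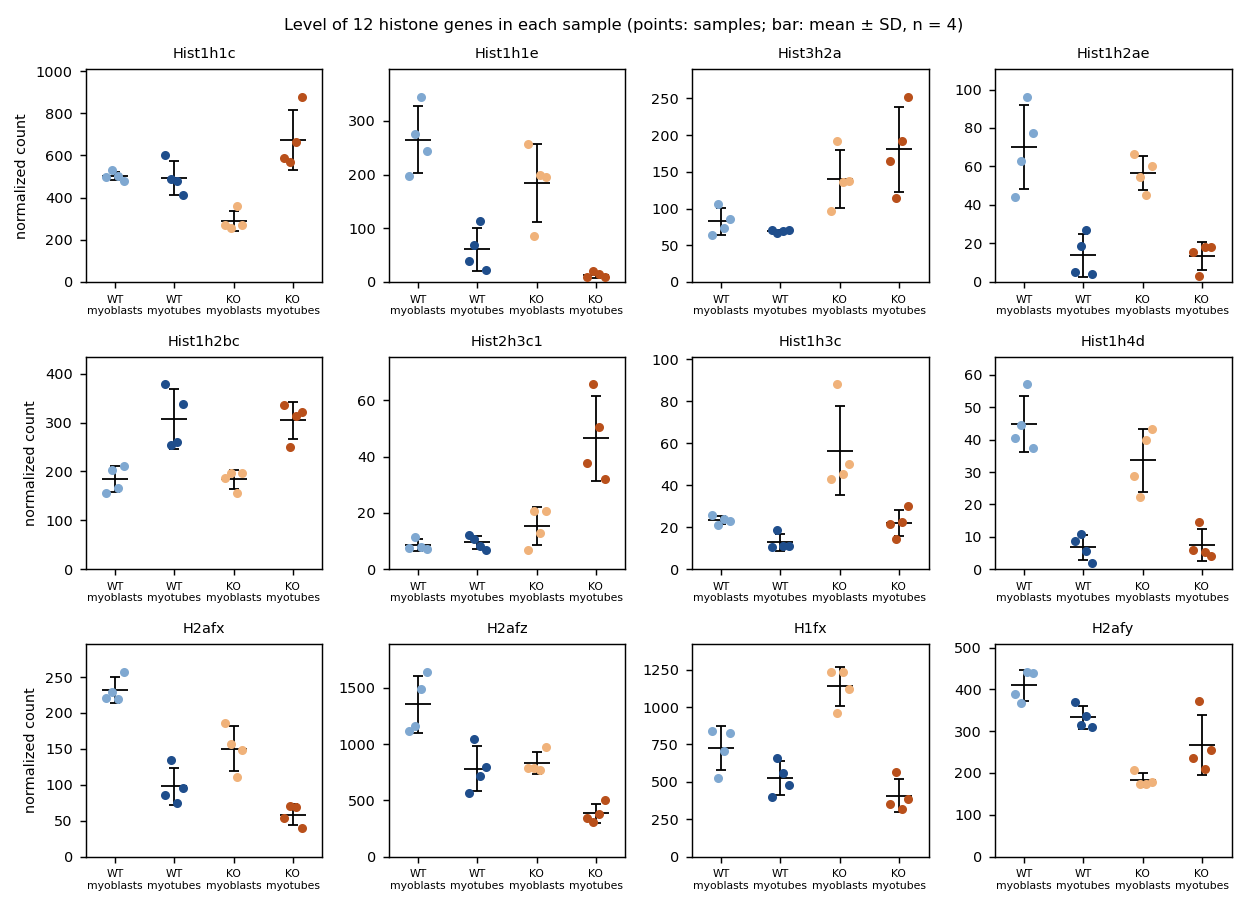
Normalized count (linear axis from 0, own scale in each panel) of 12 histone genes in the 16 samples; points are samples, bars the mean ± SD of 4. Hist1h1e, Hist1h2ae, Hist1h4d, H2afx and H2afz are lower in the myotubes of both genotypes, Hist1h2bc is higher, and Hist1h1c and Hist2h3c1 are higher in Fam134bKO myotubes than in Fam134bKO myoblasts.

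The clustered genes were also set apart by the length of their model, in a grouping made after the values were seen and given without a test. The 49 clustered genes with a model under 1000 bases summed to 713, 726, 806 and 777 in WT myoblasts and 181, 309, 261 and 174 in WT myotubes. In Fam134bKO cells the same genes summed to 792, 663, 743 and 728 and 189, 182, 197 and 168. Both genotypes were thus lower in the myotubes without overlap. The 18 genes with a longer model summed to between 1072 and 1333 before and between 907 and 1182 after differentiation in WT cells, and to between 871 and 1040.2 and between 1167 and 1613 in Fam134bKO cells. Their ranges overlapped in WT cells and were higher in the myotubes of Fam134bKO cells. Without Hist1h1c, the other 17 summed to between 614 and 728 in Fam134bKO myoblasts and between 598 and 735 in the myotubes, so the higher sum rests on that gene. Of the 22 tested genes with the shorter models, 13 were lower and 0 higher in WT myotubes, and 21 lower and 1 higher in Fam134bKO myotubes. Of the 13 tested genes with the longer ones, 4 were lower and 1 higher in WT and 4 lower and 3 higher in Fam134bKO myotubes. The share lower was 59.1% in WT and 95.45% in Fam134bKO cells for the shorter models, and 30.8% in each for the longer ones. All genes were called lower in 9.16% and 16.1% of cases, and higher in 13.8% and 17.3%. For the longer models the share higher was 7.69% in WT and 23.1% in Fam134bKO cells. The limit on level bears on these counts, since 15 of the 22 shorter and 4 of the 13 longer models reached it through the myoblasts alone. Among those with counts in both stages, 4 of 7 shorter models were lower and 0 higher in WT and 6 lower and 1 higher in Fam134bKO cells, and of 8 longer ones 1 was lower and 1 higher in WT and 1 lower and 3 higher in Fam134bKO cells. Length did not part the calls cleanly. The longer models called lower, Hist1h1e, Hist1h4d, Hist2h4 and Hist4h4, were the same in both genotypes. Hist1h4h, whose model ends 46 bases past the stem-loop with a polyadenylation signal, was higher in Fam134bKO myotubes. All 22 short-ended models share 50% or more of their ends, against 8 of the 22 that run on past the stem-loop, so the kind of end and shared sequence cannot be told apart here.

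**Figure D4:**
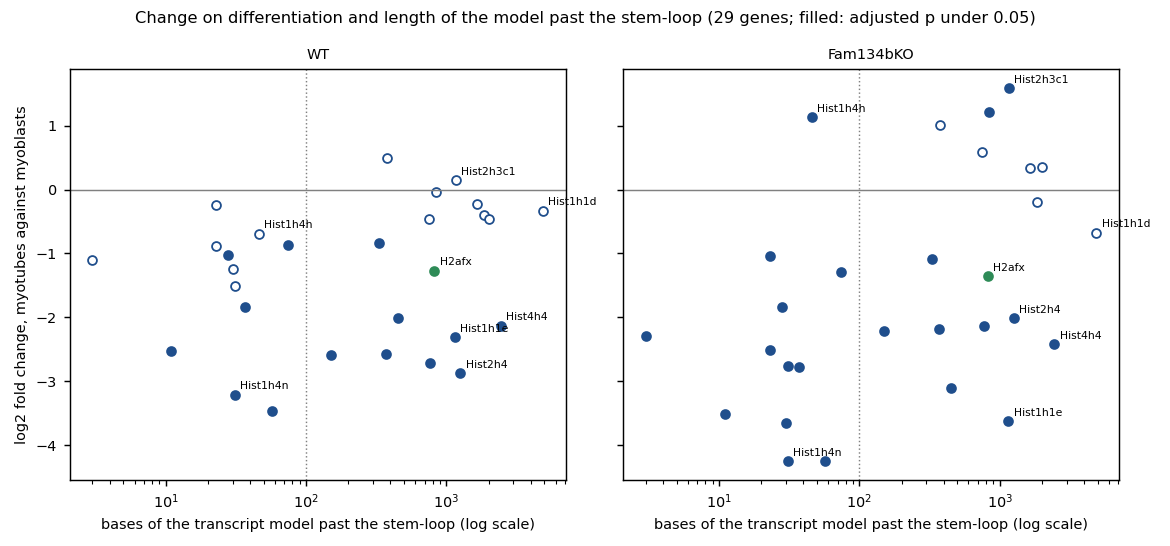
Log2 fold change of myotubes against myoblasts (linear axis) over the number of bases of the transcript model past the stem-loop (log axis) for the 29 tested genes with a stem-loop, WT left and Fam134bKO right; filled points have an adjusted p under 0.05 by limma, green is H2afx, and the dotted line marks 100 bases. Genes near or above 0 lie mostly right of the dotted line, among others that fell.

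Of the 9 tested variant histones, 2 were called lower and 0 higher in WT cells on differentiation (0 higher also at an unadjusted p under 0.05 and with voom), with a median log2 fold change of -0.25. In Fam134bKO cells 5 were lower and 1 higher, with a median of -0.41. All genes were called lower in 9.16% and 16.1% of cases in these comparisons and higher in 13.8% and 17.3%. H2afx, whose product is phosphorylated at DNA breaks, was 221, 229.5, 219 and 258 in WT myoblasts and 86.3, 134, 74.3 and 96.1 in WT myotubes. In Fam134bKO cells H2afx went from 185, 157, 110.2 and 148 to 54.2, 70.04, 69.3 and 39.96. Every myotube sample was below every myoblast sample of its genotype, with -1.27 (standard error 0.22, adjusted p = 0.000237) and -1.36 (standard error 0.22, adjusted p = 5.59e-05) by limma. H2afz, which codes for H2A.Z at promoters, fell without overlap too, from 1116, 1162, 1491 and 1644 to 562, 1044, 718 and 795 in WT cells. The Fam134bKO counts of H2afz were 784, 791, 773 and 976 and 339, 308, 379.7 and 506. Its log2 fold changes were -0.81 (standard error 0.19, adjusted p = 0.00478) and -1.13 (standard error 0.19, adjusted p = 0.000125). Its sister gene H2afv, coding for a near-identical H2A.Z, was called in no comparison. H2afv stood at 508, 553, 529 and 594 in WT myoblasts and 510.2, 625, 474 and 449.8 in WT myotubes, and its 95% confidence interval in WT cells was -0.51 to 0.33. The Fam134bKO values were 397, 799, 377 and 458 and 434, 449, 607 and 621, with the second myoblast sample the highest.

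Both genes of the replacement H3, which is deposited outside replication, were called in no comparison. H3f3b was 1647, 1873, 1472 and 1626 in WT myoblasts and 1629, 1496, 1136 and 1481 in WT myotubes. Fam134bKO cells had 1283, 1993, 1264 and 1365 of it as myoblasts and 1676, 1310.3, 2041 and 1964 as myotubes, with log2 fold changes of -0.21 (95% confidence interval -0.59 to 0.17, adjusted p = 0.431) in WT and 0.25 (95% confidence interval -0.13 to 0.63, adjusted p = 0.31) in the knockout. H3f3a was 96.9, 65.6, 75.1 and 92.7 and 95.8, 71.97, 76.2 and 101 in the WT stages. Its Fam134bKO values were 78.7, 76.4, 62.5 and 60.1 and 103, 102, 54.9 and 77.9. All of these ranges overlapped. H3f3a also overlaps the antisense H3f3aos on the other strand, and since the strand setting of the counting is not given in the sources used here, reads of the pair cannot be separated. H2afx, H2afy, H2afj and H1f0 too each overlap an annotated gene on the other strand.

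The linker variants are H1f0 and H1fx. H1f0, the linker histone that accumulates in resting cells, was 861, 767, 816 and 918 in WT myoblasts and 1088, 971, 935 and 943 in WT myotubes. All WT myotube samples were above the myoblasts, but the change did not pass (log2 fold change 0.23, adjusted p = 0.24). In Fam134bKO cells H1f0 went from 1185, 1269, 1222 and 1385 to 1051, 835, 1036 and 909, and the drop passed (log2 fold change -0.41, adjusted p = 0.0258). That call was lost without Fam134bKO myoblasts 4 or Fam134bKO myotubes 2 (-0.36 and -0.34, adjusted p = 0.0833 and 0.0755). H1fx was 839.7, 523, 707 and 825 in WT myoblasts and 395, 661, 556 and 482 in WT myotubes, with the second myoblast sample inside the myotube range. Its Fam134bKO counts were 1236, 962, 1233.6 and 1121 and 353, 565, 317 and 388, without overlap. Limma gave -0.47 (standard error 0.20, adjusted p = 0.0953) in WT and -1.51 (standard error 0.20, adjusted p = 5.45e-06) in Fam134bKO cells, and the WT drop passed without WT myoblasts 2 or WT myotubes 2 (-0.61 and -0.59, adjusted p = 0.0398 and 0.0387). H1fx overlaps the annotated genes Gm47286 on the same strand and Gm5577 on the other. How reads in these overlaps were counted is not given in the sources used here.

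MacroH2A, coded by H2afy, carries a large extra domain and marks silent chromatin. H2afy stood at 388, 366, 442 and 440.2 in WT myoblasts and at 369.5, 315, 337 and 310.1 in WT myotubes. The knockout values were 207, 173, 173 and 178 in myoblasts and 235, 372, 209 and 254 in myotubes. It was called higher on differentiation in Fam134bKO cells (log2 fold change 0.52, standard error 0.17, adjusted p = 0.0205) and not in WT cells (log2 fold change -0.30, adjusted p = 0.209), by limma. The first call was lost without Fam134bKO myoblasts 3 (0.49, adjusted p = 0.0508) or Fam134bKO myotubes 2 (0.35, adjusted p = 0.0835). H2afj, an H2A variant known from senescent cells, was 791, 493, 696 and 647 in WT myoblasts and 429, 665, 651 and 471 in WT myotubes. Its levels in Fam134bKO cells were 1244, 591, 1072 and 964 and 485, 1002, 423 and 468. Overlap was present in both genotypes: the second Fam134bKO myoblast sample was the lowest of its group and the second Fam134bKO myotube sample the highest. The drop passed in Fam134bKO cells (log2 fold change -0.74, adjusted p = 0.0299), but not without any 1 of Fam134bKO myoblasts 1, 3 and 4 and Fam134bKO myotubes 1, 3 and 4 (-0.73 to -0.61, adjusted p = 0.0653 to 0.109).

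Fam134bKO and WT myoblasts were compared to see the genotype before differentiation. Of the tested clustered genes 3 were higher (Hist1h3c, Hist1h4b and Hist3h2a) and 1 lower (Hist1h1c) in Fam134bKO myoblasts, against background shares of 7.26% and 8.5%, and the median log2 fold change was -0.20 against -0.01 over all genes. Hist1h3c differed most among those called, 1.17 (standard error 0.30, adjusted p = 0.00848), without overlap of the groups. Without the second myoblast sample of both genotypes it was 0.89 (adjusted p = 0.0963). Hist3h2a was higher too (log2 fold change 0.75, adjusted p = 0.0324), but its ranges overlapped. That call was lost without any 1 of WT myoblasts 1, 3 and 4 and Fam134bKO myoblasts 2, 3 and 4 (0.58 to 0.77, adjusted p = 0.058 to 0.116). Hist1h1c was lower by limma, -0.81 (standard error 0.17, adjusted p = 0.00129), with all 4 Fam134bKO samples under the WT samples. The count of 4 calls fell to 2 without WT myoblasts 3, Fam134bKO myoblasts 3 or Fam134bKO myoblasts 4, and to 1 without the second myoblast samples.

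Among the 9 variants 2 were higher (22.2%, against 7.26% of all genes) and 3 lower (33.3%, against 8.5%) in Fam134bKO myoblasts. H2afy was lower without overlap (log2 fold change -1.16, standard error 0.17, adjusted p = 2.31e-05), the most negative of the variants. H2afz (log2 fold change -0.69, adjusted p = 0.0169) and H2afx (log2 fold change -0.64, adjusted p = 0.047) were lower as well, and the 2 linker variants H1fx (log2 fold change 0.67, adjusted p = 0.0235) and H1f0 (log2 fold change 0.59, adjusted p = 0.00377) were higher, by limma and all without overlap. The call of H2afx was lost without any 1 of the 4 WT myoblast samples, WT myotubes 4 or Fam134bKO myoblasts 2, 3 or 4 (-0.67 to -0.50, adjusted p = 0.0593 to 0.174). That of H1fx was lost without WT myoblasts 2 or 3 or Fam134bKO myoblasts 1, 3 or 4 (0.52 to 0.68, adjusted p = 0.0518 to 0.102), and that of H2afz without WT myoblasts 3 or 4 (-0.64 and -0.59, adjusted p = 0.0584 and 0.0707). The count of 5 went to 2 without WT myoblasts 3 and to 3 without WT myoblasts 2 or 4 or Fam134bKO myoblasts 3 or 4. The muscle marker sums, 3605 to 4336 in WT and 388 to 524 in Fam134bKO myoblasts, differed between these groups, and their part in the histone differences was not tested.

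**Figure D5:**
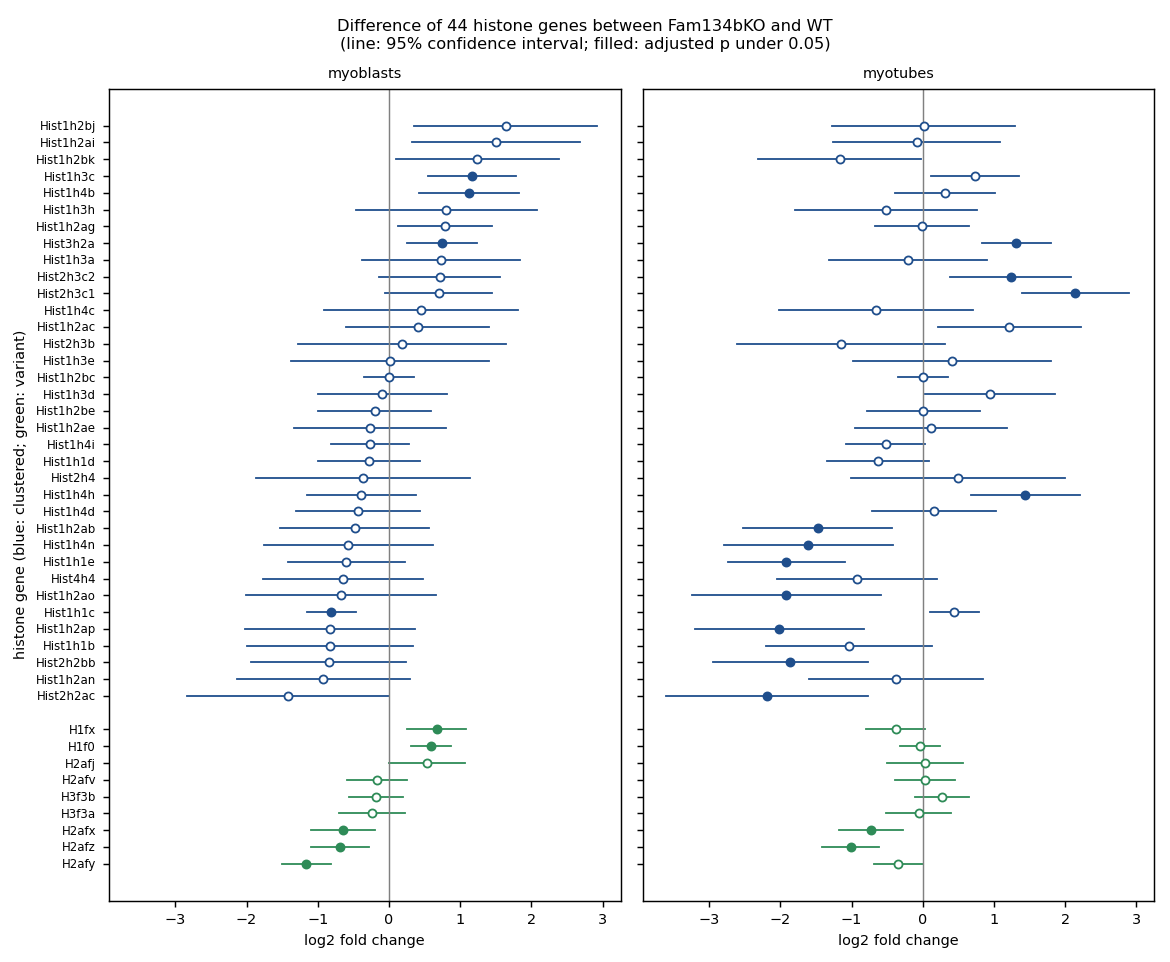
Log2 fold change of Fam134bKO against WT in myoblasts (left) and myotubes (right) for the 44 tested genes, blue for clustered and green for variant; lines are 95% confidence intervals from limma and filled points have an adjusted p under 0.05. In myotubes Hist2h3c1 at 2.14 and Hist2h2ac at -2.19 are the ends of the clustered genes.

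In myotubes, 4 clustered genes were higher and 7 lower in Fam134bKO than in WT cells, with 9.74% and 13.7% of all genes called in these directions, and the median was -0.09 (-0.01 with Hist1h4n at its bound) against -0.07. The 4 higher genes were Hist2h3c1, Hist1h4h, Hist3h2a and Hist2h3c2, all with counts in both stages. The 7 lower genes were Hist1h1e, Hist2h2ac, Hist1h4n, Hist1h2ab, Hist2h2bb, Hist1h2ao and Hist1h2ap. Of these 7, 5 reached the limit on level through the myoblasts alone. Mean counts of Hist1h2ab (1.38 in Fam134bKO and 5.02 in WT myotubes) and Hist2h2bb (0.50 and 4.63) lay near the floor of 3 reads. Log2 fold changes from limma were 2.14 (standard error 0.36, adjusted p = 0.000202) for Hist2h3c1 and 1.32 (standard error 0.24, adjusted p = 0.000366) for Hist3h2a, both without overlap. Hist1h1e was lower, at -1.92 (standard error 0.39, adjusted p = 0.00129), with every Fam134bKO sample under every WT sample. Hist2h2ac was the most negative at -2.19 (standard error 0.68, adjusted p = 0.0238), with overlapping ranges and a count in 1 of the 4 Fam134bKO libraries. Its call was lost without WT myotubes 2 or 3 or Fam134bKO myotubes 1, 2 or 4 (-1.95 to -1.74, adjusted p = 0.0528 to 0.101). Hist1h4n, also among the 7, had no read in the Fam134bKO myotubes and a mean count of 3.24 in WT myotubes, near the floor of 3 reads. Its call was lost in 24 of the alternative settings. Hist1h3c was called higher without WT myotubes 2 or Fam134bKO myotubes 2 (0.93 and 0.91, adjusted p = 0.0355 and 0.0288), and Hist1h4i lower without the latter (-0.75, adjusted p = 0.0326). The 11 calls fell to 6 without WT myotubes 2 or WT myotubes 3 and to 7 without the 2 shallowest libraries. Without the genes that share their ends, 2 of the 13 left were called, both higher. Variants called lower were H2afz (log2 fold change -1.01, standard error 0.19, adjusted p = 0.000688) and H2afx (log2 fold change -0.73, standard error 0.22, adjusted p = 0.0176), both without overlap, and 0 of 9 were higher (0 also at an unadjusted p under 0.05 and with voom). That count was 1 without WT myotubes 2 or Fam134bKO myotubes 4 and 4 without Fam134bKO myotubes 2, where H2afy (-0.52, adjusted p = 0.0169) and H1fx (-0.55, adjusted p = 0.0435) were lower too. The call of H2afx was the one lost without WT myotubes 2 or Fam134bKO myotubes 4 (-0.57 in each, adjusted p = 0.0643 and 0.0591). Muscle marker sums and proliferation marker sums were both lower in Fam134bKO myotubes, in the ranges given above, and their part was not tested.

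The difference between the genotypes' changes on differentiation was tested as an interaction, which called 1 clustered gene higher and 0 lower, and 0 variants higher and 1 lower, where 1.97% of all genes were called higher and 1.48% lower. Before adjustment, 2 clustered genes with a lower and 1 variant with a higher value had a p under 0.05, and with voom 0 of each were called. Hist1h1c changed more upward in Fam134bKO than in WT cells by 1.25 (standard error 0.23, adjusted p = 0.00283) on the log2 scale. The interaction of H1fx was -1.05 (standard error 0.28, adjusted p = 0.0416), and this call was lost with the replicate block (no variant called) and in 14 other settings. Those were an adjusted p under 0.01, no limit on level, the omission of the second myoblast samples together, and the omission of any 1 of WT myoblasts 2 and 3, WT myotubes 2, 3 and 4, Fam134bKO myoblasts 1, 3 and 4 and Fam134bKO myotubes 1, 3 and 4 (-1.08 to -0.90, adjusted p = 0.0577 to 0.101). H2afy, whose ranges are given above, passed without Fam134bKO myotubes 3 (0.92, adjusted p = 0.0305). The clustered count rose to 2 without WT myotubes 2 or Fam134bKO myotubes 2 and to 3 without Fam134bKO myotubes 4. For the other members a difference between the genotypes' changes was not called, and the intervals are wide: that of Hist1h1e was -2.48 to -0.16 and that of Hist2h3c1 0.39 to 2.51.

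Genes that make and clear histone mRNA were followed as a list of 35, of which 32 were tested. In WT myotubes against myoblasts 5 were lower and 0 higher (1 higher at an unadjusted p under 0.05 and 1 with voom), and in Fam134bKO cells 5 lower and 2 higher. The share lower was 15.6% in each, against 9.16% of all genes in WT and 16.1% in Fam134bKO cells, and the share higher in the latter was 6.25% against 17.3%. Slbp, the stem-loop binding protein, was not called in WT (log2 fold change 0.29, standard error 0.35, adjusted p = 0.587) or Fam134bKO differentiation (log2 fold change -0.56, standard error 0.35, adjusted p = 0.233), and was lower in Fam134bKO than in WT myotubes (log2 fold change -1.07, standard error 0.35, adjusted p = 0.0308) by limma. The Slbp ranges of these myotubes overlapped, at 9.99 to 43.8 in Fam134bKO and 39.0 to 55.5 in WT samples. Npat, the activator of histone transcription, was called in no comparison. Ccne2 (log2 fold change -1.94, standard error 0.37, adjusted p = 0.00078) and Ccne1 (log2 fold change -1.47, standard error 0.36, adjusted p = 0.00547), the E cyclins that switch Npat on with Cdk2, fell in WT cells, and they fell in Fam134bKO cells too, by log2 fold changes of -2.31 (standard error 0.37, adjusted p = 6.89e-05) and -1.30 (standard error 0.36, adjusted p = 0.00791). E2f1, a factor of the entry into S phase, fell in both WT (log2 fold change -0.92, standard error 0.29, adjusted p = 0.0241) and Fam134bKO cells (log2 fold change -1.35, standard error 0.29, adjusted p = 0.00103).

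The list of histone chaperones and exchange factors had 36 genes and 34 tested. Of these, 16 were lower and 0 higher in WT myotubes against myoblasts, and 17 lower and 0 higher in Fam134bKO cells (47.1% and 50% lower, against 9.16% and 16.1% of all genes), with 0 higher also at an unadjusted p under 0.05 and with voom. Supt16, a subunit of the FACT complex, fell by the largest amount in WT cells (log2 fold change -1.41, standard error 0.24, adjusted p = 0.000247), and Chaf1a and Chaf1b, subunits of the factor that places new H3 and H4 behind the fork, fell as well, by log2 fold changes of -1.13 (standard error 0.23, adjusted p = 0.00149) and -1.11 (standard error 0.27, adjusted p = 0.00487). Between genotypes 2 were lower and 0 higher in myoblasts (1 higher at an unadjusted p under 0.05 and 0 with voom), and 10 lower and 5 higher in myotubes. Those lower were 5.88% in myoblasts, below the 8.5% of all genes, and 29.4% in myotubes, against 13.7%, and those higher in myotubes 14.7% against 9.74%.

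Promoter sequences were taken from RefSeq on GRCm38.p6. They reach from 250 bases before to 50 after the start and were matched for 62 clustered and 14 variant genes. CCAAT, searched on both strands, was in 53 of the 62 clustered promoters, namely in all 50 of H1, H2A, H2B and H3 and in 3 of 12 of H4, in 9 of 14 variant promoters and in 41.1% of all 27025 promoters. TATAAA was in 35 of 62 clustered and 1 of 14 variant promoters, against 15.7% of all. The octamer ATTTGCAT, known from H2B promoters as a site for Oct factors, was in 7 of 16 H2B and 7 of 18 H2A promoters and in none of H1, H3 or H4, against 1.97% of all. It is shown in capitals, with 10 flanking bases on each side, for a pair of H2B genes, only the latter of which was called on differentiation.
Hist1h2be, 67 bases before the start: gtaagacttaATTTGCATaagactgcct
Hist2h2bb, 48 bases before the start: gtgaaacctcATTTGCATacaagctcta
These matches describe the letters in the window. Hist1h2be was called in no comparison, while Hist2h2bb fell on differentiation in WT (log2 fold change -2.62, adjusted p = 0.00107) and Fam134bKO cells (log2 fold change -3.64, adjusted p = 1.7e-05).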

How the data were processed

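The mRNA of 16 C2C12 samples, 4 in each of 4 groups, was sequenced from single ends. Per the submitters' processing notes, reads were demultiplexed with bcl2fastq, aligned to mm10 with STAR 2.6.0a and counted with HTSeq. Adapter trimming and removal of ribosomal reads came before this. The deposited values are on a log2 scale, each the log2 of 1 plus a read count divided by a size factor. Whole reads could be recovered from 100% of the deposited log2 values within a tolerance of 0.05, and normalized counts are these values off the log scale. Total reads were 1484750 to 3287461 a sample. A count of 0 allows up to 3 reads, and such floors cover counting error only.

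Genes with a normalized count of 10 or more in 4 or more samples (10767) entered 1 limma fit of 4 group means without covariates (limma 3.58.1, R 4.3.3, empirical Bayes with a trend), with Benjamini-Hochberg adjustment over all of them at 0.05. Log2 fold changes are on the scale of the normalized count plus 1 and understate the change of low genes. P-values measure the spread between samples described as biological replicates. The grouping of genes by the end or length of their model was chosen after the values were seen. Count models were not run, since the files hold log2 values, and limma voom on the recovered reads took their place. Given in full were the 2 genes of each clustered class with the highest mean log2 value (which puts Hist1h2be above Hist2h2bb and Hist1h2bj, whose linear means are higher), every tested variant, and the most positive and most negative called member of each comparison. Alternatives changed the filter, pseudocount, scaling, threshold, samples, spread model, replicate block and shared members. Another 2, leaving out the second myoblast samples and the 2 shallowest libraries, were chosen after seeing the data. Members and lists were chosen with earlier results of these data known. Stem-loop positions come from GENCODE M21 exons and were not checked against a genome sequence.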

Additional observations from a re-analysis of the deposited data

Results flagged for a closer look

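Of 116 groups of 4 samples checked (the members given in full and the class sums), 12 held a sample far from the other 3, or 10.3%, where chance gives about 1 in 20. High samples were Hist1h1c in Fam134bKO myoblasts 3 (363, the others 256.5 to 269), Hist1h3c in WT myotubes 2 (18.9, the others 10.4 to 11.2) and H2afy in Fam134bKO myoblasts 1 (207, the others 173 to 178). H3f3b was high in Fam134bKO myoblasts 2 (1993, the others 1264 to 1365) and H2afz in Fam134bKO myoblasts 4 (976, the others 773 to 791). H2afj was high in Fam134bKO myotubes 2 (1002.5, the others 423 to 485). Hist2h2ac was high in WT myoblasts 3 (129, the others 71.4 to 74.7) and in Fam134bKO myotubes 3 (7.20, the others at 0).

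Low samples were Hist1h2ae in Fam134bKO myotubes 2 (2.92, the others 15.5 to 17.99) and Hist1h4n in WT myoblasts 4 (15.2, the others 30.9 to 34.1). The sum of the clustered H2B genes was low in Fam134bKO myotubes 2 (271, the others 354 to 371), and that of the H4 genes in Fam134bKO myoblasts 1 (206, the others 236 to 237). Fam134bKO myotubes 2, the second shallowest of all libraries, stood apart for 3 of these.

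The change on differentiation differed between the genotypes for Hist1h1c, by 1.25 on the log2 scale, and for H1fx, by -1.05, each tested as an interaction by limma.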

How the results depend on the processing

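With any 1 sample left out, the calls among clustered genes ranged from 13 to 19 in WT differentiation (18 with all samples), 26 to 29 in Fam134bKO differentiation (29), 2 to 6 between myoblasts (4), 6 to 12 between myotubes (11) and 1 to 3 for the interaction (1). For variants they ranged from 2 to 3, 4 to 6, 2 to 5, 1 to 4 and 0 to 1 (2, 6, 5, 2 and 1 with all samples). In WT differentiation the clustered count was 5 at a minimum of 50 and 6 with shared members left out, and the variant count 1 at a log2 change of 1 or more and 4 with array weights. In Fam134bKO differentiation the clustered count was 44 with no filter, 6 at a minimum of 50, 19 with a mean of 10 or more and 7 with shared members left out. The variant count there was 3 at an adjusted p under 0.01, at a log2 change of 1 or more, and with only the 8 samples compared. Between myoblasts the clustered count was 2 at an adjusted p under 0.01, at a log2 change of 1 or more, at a minimum of 50 and with shared members left out. It was 7 with a pseudocount of 5 or without the 2 shallowest libraries, 8 with only the 8 samples or with voom, 9 with array weights and 1 without the second myoblast samples. The variant count was 2, 1 and 3 at an adjusted p under 0.01, a log2 change of 1 and without the second myoblast samples. Between myotubes the clustered count was 4 at an adjusted p under 0.01, 7 with no filter or without the 2 shallowest libraries, 3 at a minimum of 50, 6 with a pseudocount of 5 or voom, 5 with only the 8 samples and 2 with shared members left out. The variant count was 1 at an adjusted p under 0.01, at a log2 change of 1, with only the 8 samples and with array weights. The clustered interaction count was 3 with a pseudocount of 5 or without the 2 shallowest libraries, 2 with quantile normalization or voom and 4 with array weights. The variant interaction count was 0 at an adjusted p under 0.01, with no filter, with the replicate block and without the second myoblast samples, and 2 with total scaling or array weights. Fewer genes enter with a higher minimum or without shared members, and the cause of the other shifts was not tested.

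With shared members left out, Hist1h1c, Hist1h2bc and Hist3h2a stay in the clustered sum and weigh on it. Its mean log2 difference was then -0.090 in WT (-0.65 with all) and turned to 0.59 in Fam134bKO differentiation (-0.16 with all). One sample left out moved these from -0.69 to -0.58 and from -0.24 to -0.11, the variants from -0.35 to -0.25 and from -0.41 to -0.36. The myoblast sums ranged from -0.25 to -0.16 (clustered) and -0.01 to 0.06 (variants), and the myotube sums from 0.20 to 0.33 and -0.11 to -0.02. Over 3468 values of single genes under the alternatives, 3298 kept their direction and side of the threshold, 143 lost a call and 27 gained one. Over all tested genes the deviations of same-numbered samples had a mean correlation of 0.03 (-0.22 to 0.37, 24 pairs) and those of differently numbered ones of -0.01 (-0.35 to 0.37, 72 pairs), so the numbers were not taken to pair the samples, although single genes such as H2afj and Hist1h2ap stood apart in same-numbered samples. With the replicate block the clustered count was 17 in WT and 29 in Fam134bKO differentiation. The low read numbers of clustered genes limit these results: 18 of the 35 tested had fewer than 20 reads in every myotube sample.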

Other observations

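No read was found for 4 variants and 5 clustered genes in any sample, namely H1foo, H1fnt, H2afb2, H2afb3, Hist1h2aa, Hist1h2ba, Hist1h2bq, Hist1h2br and Hist1h4m. H1foo is known as the linker histone of the oocyte, and H1fnt, Hist1h2aa and Hist1h2ba from the testis. H2afb1 had reads in 1 library (2.77 in WT myoblasts 1). H2afy2, the second macroH2A gene, stayed below the limit for testing, with 6.46, 2.89, 3.002 and 8.02 in WT myoblasts and 2.59, 0.8996, 3.72 and 2.97 in WT myotubes. It stood at 0.875, 0, 0.868 and 0.834 in Fam134bKO myoblasts and at 0 in all 4 Fam134bKO myotube samples. These levels are near the 2.49 to 5.99 that 3 reads stand for, so no difference can be read from them.

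Hist2h2be, an H2B gene of cluster Hist2, reached 1.94, 2.92, 8.997 and 23.98 in Fam134bKO myotubes, with the high value in the shallowest library. Hist1h1a had 5.54, 10.6, 14.01 and 9.803 in WT myoblasts and 3.45, 2.699, 1.86 and 0 in WT myotubes, and was not tested. The antisense H3f3aos was between 0 and 7.77 in every sample.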
